A study of Mus musculus with 12 samples.

Results

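The response to PF-06409577 of bone marrow-derived macrophages (BMDMs) that lack the AMPKβ1 subunit is described here, that is, the transcript changes seen with the compound in cells without the subunit it acts through. Its members are the 6 of 12 RNA-seq libraries made from AMPKβ1-/- BMDMs, 3 with PF-06409577 (PF) and 3 with vehicle, and the genes that passed a filter on low counts, 10822 of 12960. Both groups came from mice without AMPKβ1 in the whole body, whose marrow was differentiated with L929-conditioned medium as the source of M-CSF. They received 0.1% DMSO as vehicle or 10 µM PF for 6 h, and the age of the mice was not given. The 6 other libraries were wild type (WT) BMDMs treated the same way, and they served to set a response beside that of cells with the subunit. The comparison addresses which effects of the compound do not need AMPKβ1. The sources used here do not state whether the 3 libraries of a group came from separate mice or cultures, so the p values measure the spread between these libraries, which may be technical.

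AMPK is a kinase of α, β and γ subunits that senses low cellular energy. Its catalytic α subunit is held by a β scaffold and a γ subunit that binds nucleotides, and when active it restrains lipid and sterol synthesis and promotes autophagy. PF-06409577 binds at the interface of the α and β subunits and activates complexes that hold β1, the main β isoform of rodent macrophages. Macrophages without β1 can still carry complexes with β2.

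The genotype labels matched the measured Prkab1. Prkab1, which encodes AMPKβ1, had 8.39, 7.70 and 6.05 CPM (counts of the gene relative to all counts of its library, TMM-normalized) in vehicle libraries 1 to 3 and 9.41, 9.42 and 7.90 CPM in PF libraries 1 to 3 of the AMPKβ1-/- BMDMs. In the WT libraries it lay between 37.3 and 45.3 CPM, so the genotypes did not overlap and residual reads remained in AMPKβ1-/- cells. All 10 macrophage markers listed were tested, and their summed level was 26029 to 29446 CPM with vehicle and 27200 to 27518 CPM with PF. The summed markers of granulocytes, lymphoid cells and dendritic cells reached at most 1.46 CPM in any of the 6 libraries, and those of erythroid and mast cells at most 1.55 CPM. Osteoclast markers summed to 96.0 to 105.5 CPM, and fibroblast and stroma markers to as much as 10.4 CPM with vehicle and 3.07 CPM with PF. Between 8935609 and 14358180 counts were assigned to genes in a library, and 3 counts, the floor for a gene at 0, equalled 0.196 to 0.318 CPM, which covers counting error only.

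Few transcripts were called different between PF and vehicle in AMPKβ1-/- BMDMs by edgeR, and their number depended on the setting. At the threshold of the study, an adjusted p under 0.05 together with a log2 change of more than 0.8 in either direction, 6 genes were differentially expressed (DEGs), 0.0554% of those tested by edgeR's quasi-likelihood test, and all 6 rose: Zfp677, Arhgap5, Ccdc88a, Rock1, Phip and Rb1cc1. No gene fell by this test. DESeq2 on the same 12 libraries called 31 DEGs higher and 1 lower. At an unadjusted p below 0.05 by edgeR, 464 genes were higher (4.29%) and 75 lower (0.693%). Together these were 539 of 10822 genes, near the share that a p below 0.05 lets through where nothing differs. The 3 PF libraries all lay above the 3 vehicle libraries in 888 genes (8.21%) and all below in 680 (6.28%). When the trend of each library in GC content and gene length was removed, the direction of the smaller changes shifted. The higher share fell from 86.1% to 54.0% of genes with an unadjusted p below 0.05 and from 56.6% to 43.0% of genes without overlap.

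**Figure D1:**
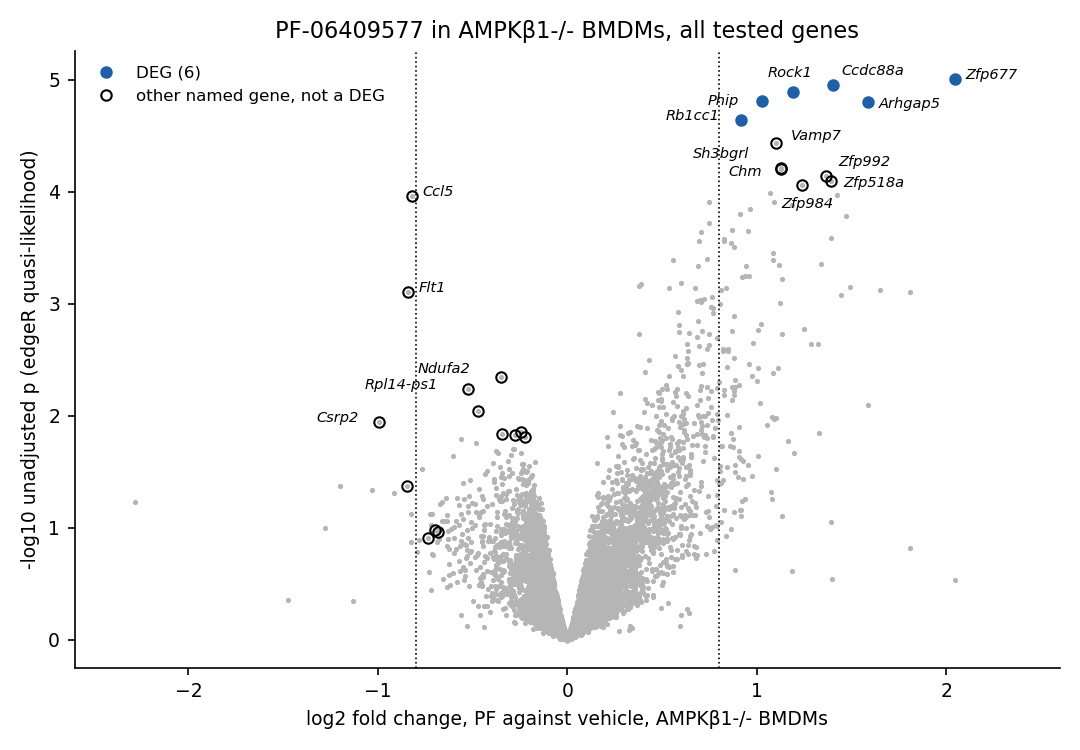
Log2 fold change of PF against vehicle in AMPKβ1-/- BMDMs (x) against -log10 of the unadjusted p of edgeR's quasi-likelihood test (y), with 1 point for each tested gene. Blue points are the 6 DEGs, open circles genes named for a small p or a large difference, and dotted lines the fold change threshold of 0.8 in each direction. The genes with the smallest p lie to the right, and Ccl5 is the lower gene with the smallest p. 2 genes listed at 0 in all libraries of a group lie beyond the x axis and are not drawn.

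Of the 6 DEGs, 3 act on the actin cytoskeleton. Rock1, a kinase that drives actomyosin contraction, had 14.2, 14.4 and 14.6 CPM in the vehicle libraries and 30.5, 26.5 and 42.0 CPM in the PF libraries. Every PF library exceeded every vehicle library, and PF library 3 was the highest. The log2 fold change of Rock1 was 1.19 ± 0.19 (SE) with an adjusted p of 0.0339 by edgeR.

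Arhgap5 encodes p190-B, a GTPase-activating protein that acts on the actin cytoskeleton. It had 3.01, 3.26 and 4.03 CPM with vehicle and 10.9, 7.30 and 12.7 CPM with PF, from 33, 50 and 38 counts and from 125, 93 and 137 counts. The groups were well apart, and the log2 fold change was 1.59 ± 0.26 (adjusted p = 0.0339, edgeR). Ccdc88a encodes girdin, an actin-binding protein of cell migration. It had 5.20, 5.28 and 7.21 CPM with vehicle and 16.4, 14.3 and 15.8 CPM with PF, a log2 fold change of 1.41 ± 0.22 (adjusted p = 0.0339, edgeR). The spread among the PF libraries of Ccdc88a was small beside the distance between the groups.

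The other DEGs were a gene of autophagy and 2 genes of nuclear proteins. Rb1cc1 encodes FIP200, the scaffold of the ULK1 complex that starts autophagosomes. It had 9.21, 10.5 and 10.7 CPM with vehicle and 20.5, 16.4 and 20.6 CPM with PF, and its log2 fold change of 0.92 ± 0.15 was the smallest of the 6 (adjusted p = 0.0414, edgeR). The groups of Rb1cc1 did not overlap, with PF library 2 the lowest of the PF libraries.

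Phip encodes a bromodomain protein that binds chromatin. It had 11.9, 10.2 and 14 CPM with vehicle and 26.2, 21.3 and 25.6 CPM with PF (log2 fold change 1.03 ± 0.17, adjusted p = 0.0339, edgeR). Zfp677, a zinc finger gene, had the largest log2 fold change of the 6, 2.05 ± 0.32 (adjusted p = 0.0339, edgeR), on the fewest reads. It was measured by 10, 8 and 8 counts with vehicle and 34, 34 and 39 counts with PF, or 0.912, 0.522 and 0.848 CPM against 2.96, 2.67 and 3.63 CPM. Zfp677 had 2 to 7 counts in the WT libraries and passed the filter on low counts through the PF libraries of AMPKβ1-/- BMDMs. Its adjusted p without that filter was 0.0241 (edgeR), and with at least 10 counts required in every library it was not tested. PF library 2 was the lowest PF library in all 6 DEGs, yet it stood above every vehicle library.

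**Figure D2:**
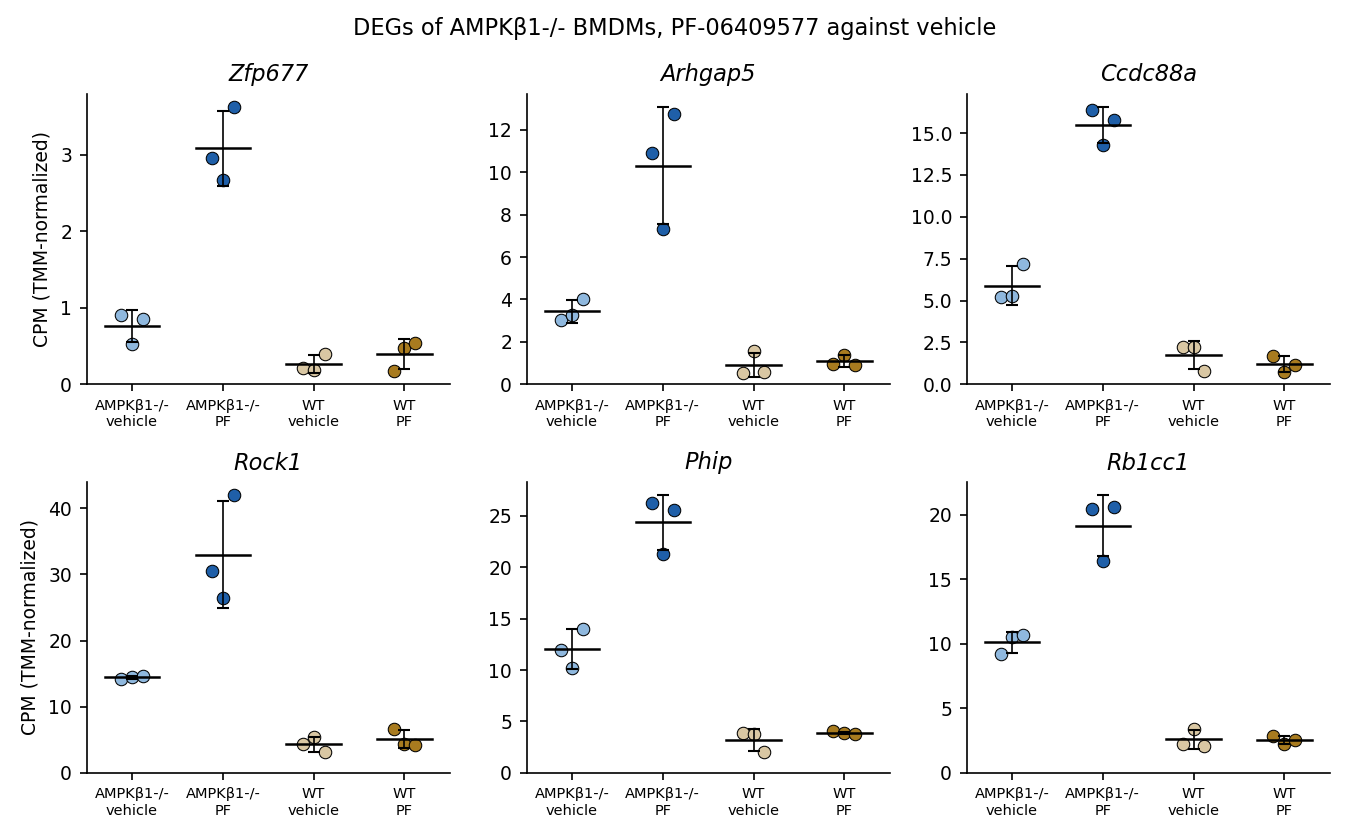
CPM (TMM-normalized, y axes from 0) of the 6 DEGs in the 4 groups, 3 libraries each. Points are libraries 1 to 3 from left to right, horizontal lines group means and error bars SD. In each panel the 3 PF libraries of AMPKβ1-/- BMDMs stand above the 3 vehicle libraries.

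In GENCODE M21 (GRCm38) these genes are spread over 6 chromosomes. Zfp677 is at chr17:21383748-21399265, Arhgap5 at chr12:52503972-52571975, Ccdc88a at chr11:29373658-29510808, Phip at chr9:82866159-82975516, Rb1cc1 at chr1:6206197-6276648, and Rock1 on chromosome 18. The GC content of their transcripts ran from 33.9% to 40.2%, while the median over all tested genes was 50.1%. GC content was not itself a criterion, but the log2 fold change was. Its Spearman correlation with GC content over the tested genes was -0.46, so low GC is not independent of the choice. Their transcripts were 2917 to 10756 bases long, against a median of 3126 bases.

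The 6 calls rested on a narrow margin. Leaving out vehicle library 1, 2 or 3 or PF library 1 or 3 left 0 DEGs by edgeR, and leaving out PF library 2 left 6, of which 5 were shared. With the GC and length trend removed none of the 6 passed, the log2 fold changes being 1.62 for Zfp677, 1.00 for Ccdc88a, 0.87 for Rock1, 0.80 for Arhgap5, 0.60 for Phip and 0.52 for Rb1cc1.

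In WT BMDMs none of the 6 DEGs passed an adjusted p of 0.05. Their log2 fold changes there were 0.56 ± 0.58 for Zfp677, 0.27 ± 0.23 for Phip, 0.23 ± 0.25 for Rock1, 0.22 ± 0.44 for Arhgap5, -0.03 ± 0.23 for Rb1cc1 and -0.52 ± 0.37 for Ccdc88a. The WT levels also lay lower, a genotype difference not tested here. Rock1 lay between 3.18 and 6.69 CPM over the 6 WT libraries and Ccdc88a between 0.749 and 2.25 CPM. The WT values of Zfp677, Arhgap5 and Ccdc88a rest on 2 to 7, 5 to 17 and 8 to 24 counts a library. The WT libraries also had higher slopes on GC content, given below, and the part of these in the lower levels was not tested. The difference between the responses (interaction, WT minus AMPKβ1-/-) passed for none of the 6, with adjusted p from 0.0700 for Ccdc88a to 0.359 for Zfp677 by edgeR. Over all genes this difference passed for 45 (0.416%). The 6 genes were called in AMPKβ1-/- BMDMs, and a response particular to that genotype was not shown.

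The genes next in order of p were higher with PF and missed the threshold narrowly. Vamp7, a SNARE of late endosomes and lysosomes, had 4.38, 5.61 and 5.51 CPM with vehicle and 12.02, 10.4 and 10.97 CPM with PF, a log2 difference of 1.10 ± 0.19 (adjusted p = 0.0560, edgeR). Chm, the Rab escort protein that presents Rab GTPases for prenylation, differed by 1.13 ± 0.21 (adjusted p = 0.0745, edgeR). Sh3bgrl, which encodes a small protein of thioredoxin fold, had 35.1, 40.04 and 42.4 CPM with vehicle and 95.9, 70.8 and 90.0 CPM with PF, a difference of 1.13 ± 0.20 (adjusted p = 0.0745, edgeR). In all 3 genes the groups did not overlap. The zinc finger genes Zfp992, Zfp518a and Zfp984 had log2 differences of 1.37 ± 0.26, 1.39 ± 0.26 and 1.24 ± 0.24, each with an adjusted p of 0.0778.

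Unadjusted p below 0.05 were fewer in the lower direction, at 0.693% of genes against 4.29% in the higher direction. Ccl5, which encodes the chemokine RANTES that draws T cells and monocytes, had 8.75, 8.67 and 9.01 CPM with vehicle and 4.27, 5.73 and 4.93 CPM with PF. The vehicle libraries agreed within 0.179 CPM (SD) and the groups were far apart, with a log2 difference of -0.82 ± 0.16 and an adjusted p of 0.0778 by edgeR. DESeq2 on the 12 libraries gave Ccl5 an adjusted p of 0.0154, and edgeR on the 6 AMPKβ1-/- libraries alone gave 0.0415. Limma-voom gave 0.0586, the replicate block 0.103 and the fit with the GC and length trend removed 0.170, and leaving out 1 library at a time gave 0.0641 to 0.599. In WT BMDMs Ccl5 differed by -0.01 ± 0.14, and the difference between the genotypes had an adjusted p of 0.108 by edgeR.

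Flt1, the VEGF receptor 1 of monocytes and endothelium, had 4.28, 4.24 and 3.39 CPM with vehicle and 2.35, 2.36 and 1.95 CPM with PF, without overlap (log2 difference -0.84 ± 0.20, adjusted p = 0.158, edgeR). The 8 remaining genes with the smallest p among lower genes were Ndufa2, a subunit of respiratory complex I, Rpl14-ps1, B430306N03Rik, Csrp2, Ifitm3, Ahcy, Chst14 and Ei24. Their groups did not overlap, but their differences ran only from -0.99 for Csrp2, at about 1 CPM, to -0.22 for Ei24, and their adjusted p from 0.417 to 0.731 by edgeR. Ifitm3, an interferon-induced barrier to virus entry, had 613, 623 and 630 CPM with vehicle and 582, 537 and 458 CPM with PF (-0.24 ± 0.09). Among genes without overlap and with a mean of at least 5 CPM, the largest lower differences were those of Nutf2, a nuclear import factor (-0.85 ± 0.38), Ccl5, Rpl37rt (-0.70 ± 0.39) and the interferon-stimulated Mx1 and Rsad2. Of the cell type markers, Fcgr1, a macrophage Fc receptor, differed by -0.28 ± 0.11 without overlap. Its PF library 3 stood at 288 CPM and the other PF libraries at 383 and 389 CPM, and without PF library 3 the difference was -0.15. Of the 10 macrophage markers 4 had a positive difference, with a median of -0.01. Col1a2, a collagen of fibroblasts, differed by -1.03 ± 0.48 with overlap, its vehicle library 1 standing at 3.19 CPM and the other 5 libraries at 0.651 to 0.978 CPM.

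The interferon-stimulated genes had a lower median in each PF library than in any vehicle library, and PF library 3 was the lowest of the 6 libraries in 15 of 16. These genes encode antiviral effectors and factors that induce them, and macrophages keep them on at a low tone through secreted interferon β. Of 16 members tested, none was a DEG, 2 had an unadjusted p below 0.05 in the lower direction, and in 9 of 16 all PF libraries lay below all vehicle libraries, beside 6.28% of all genes. None was higher without overlap. The members are not independent replicates. The median log2 difference of the list was -0.40, against -0.004 over all tested genes and 0.03 for the list in WT BMDMs.

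Some of their promoters carried a paired element. A GAAA followed by any 2 bases and a second GAAA, the core of the interferon-stimulated response element, was searched on both strands of the 250 bases before the transcript start (RefSeq, GRCm38.p6). Of the 16 members 12 were in the promoter table, and 6 of the 12 held a match: Ifit1, Ifit3, Isg15, Oas1a, Rsad2 and Stat2. Among all 32851 windows 2.98% did. The windows of Isg15 (chr4:156200819-156201068, minus strand), Rsad2 (chr12:26456453-26456702, minus strand) and Ifit3 (chr19:34583279-34583528, plus strand) are printed because these genes had both a match and libraries without overlap, as Stat2 also did. Irf7 and Oasl2, the 2 members with an unadjusted p below 0.05 (edgeR), were also lower without overlap and held no match. Capitals mark the match, which reads TTTC, 2 bases, TTTC where it lies on the other strand, and overlapping matches run together in Isg15. A match is a description, not a site or a cause.
Isg15: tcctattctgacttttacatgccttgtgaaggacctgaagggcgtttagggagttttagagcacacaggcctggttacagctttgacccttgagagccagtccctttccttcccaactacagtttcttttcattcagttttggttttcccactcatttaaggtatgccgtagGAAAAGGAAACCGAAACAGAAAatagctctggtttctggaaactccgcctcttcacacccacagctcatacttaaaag
Rsad2: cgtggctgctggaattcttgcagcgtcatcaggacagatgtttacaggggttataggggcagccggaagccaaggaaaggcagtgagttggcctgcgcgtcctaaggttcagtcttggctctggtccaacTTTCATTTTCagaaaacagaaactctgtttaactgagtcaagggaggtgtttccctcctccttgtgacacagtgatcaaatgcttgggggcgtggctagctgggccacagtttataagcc
Ifit3: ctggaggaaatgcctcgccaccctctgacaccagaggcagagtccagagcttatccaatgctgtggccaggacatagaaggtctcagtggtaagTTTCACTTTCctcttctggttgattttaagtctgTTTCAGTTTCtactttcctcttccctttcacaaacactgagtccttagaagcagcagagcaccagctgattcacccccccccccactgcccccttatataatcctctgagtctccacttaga

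Isg15, the ubiquitin-like modifier, had 86.4, 94.6 and 98.4 CPM with vehicle and 74.1, 80.9 and 39.4 CPM with PF, a log2 difference of -0.52 (unadjusted p = 0.0516, edgeR). Rsad2 encodes viperin, which blocks viral replication. It had 86.4, 89.7 and 83.8 CPM with vehicle and 71.3, 61.1 and 29.1 CPM with PF, a difference of -0.68 ± 0.39 (adjusted p = 0.982, edgeR). Both genes show the same shape: PF libraries 1 and 2 stood a little under the vehicle libraries, and PF library 3 far under them.

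Ifit3, which binds viral RNA together with other IFIT proteins, had 278, 249 and 263 CPM with vehicle and 218, 195 and 95.2 CPM with PF. The GTPase Mx1 had 69.0, 58.5 and 46.5 CPM with vehicle and 44.1, 42.6 and 17.5 CPM with PF (-0.74 ± 0.44). Irf7, the factor that amplifies interferon production, had 371, 335 and 355 CPM with vehicle and 303, 305 and 210 CPM with PF (-0.37 ± 0.17, unadjusted p = 0.0438, edgeR). Oasl2, an oligoadenylate synthetase-like gene, differed by -0.33 ± 0.15 (unadjusted p = 0.0498, edgeR). PF library 3 was the lowest of the 6 in each of these 4 genes.

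PF library 3 was the lowest of the 6 libraries in 15 of the 16 genes. The exception was Ifih1, a sensor of viral RNA, which was lowest in vehicle library 1. Summed over the list, the libraries held 2656, 2509 and 2539 CPM with vehicle and 2301, 2218 and 1370 CPM with PF (exact permutation test, two-sided, p = 0.1, the smallest that 3 against 3 libraries can give). The AMPKβ1-/- groups did not overlap. Within the WT groups the same sum spread from 2821 to 4080 CPM with vehicle and from 2795 to 4071 CPM with PF. Without PF library 3 of the AMPKβ1-/- BMDMs the median log2 difference was -0.22. Then 0 members had an unadjusted p below 0.05 in the lower direction (edgeR), against 2 with all libraries. Without PF library 1 the median was -0.59. In bulk RNA, fewer cells of a type and less RNA per cell cannot be told apart. None of the differences between the genotypes in this list passed an adjusted p of 0.05.

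**Figure D3:**
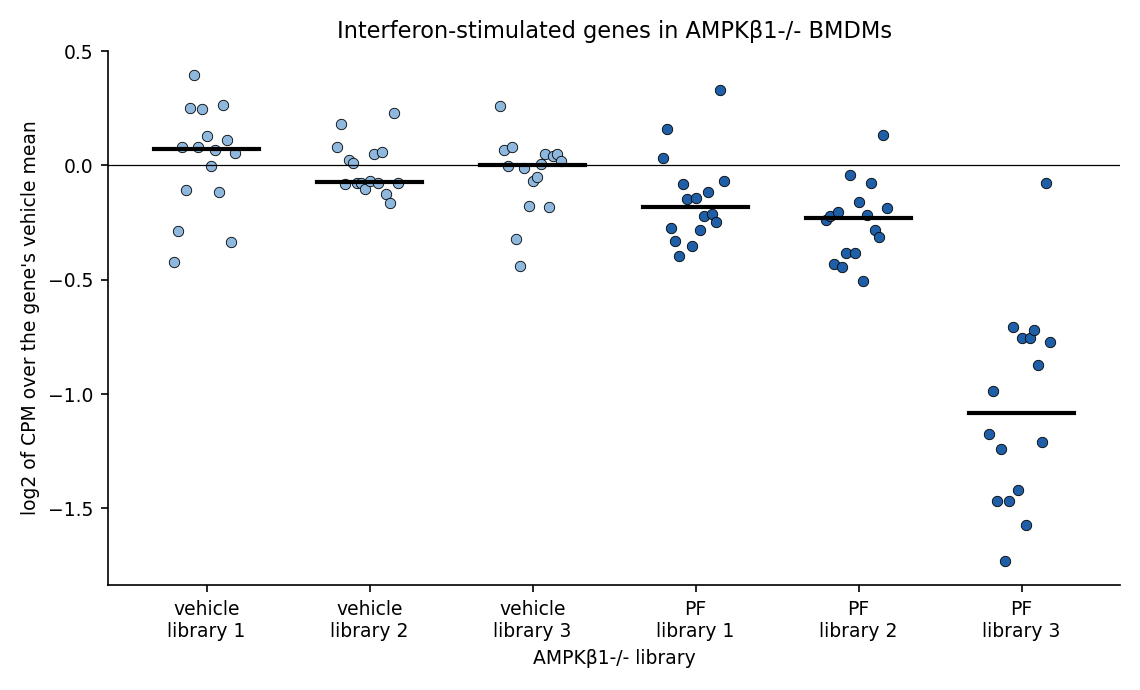
Log2 of the CPM over the gene's mean of the 3 vehicle libraries (y) for the 16 interferon-stimulated genes in each of the 6 AMPKβ1-/- libraries (x). Each point is a gene and each bar the median of the library. The medians are 0.07, -0.07 and 0.00 in vehicle libraries 1 to 3 and -0.18, -0.23 and -1.08 in PF libraries 1 to 3, so PF library 3 stands apart from the others.

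Targets of the aryl hydrocarbon receptor, a factor that many aromatic compounds bind and that acts apart from AMPK, were also listed. Of 5 members tested, none was a DEG and 2, Ahrr and Tiparp, had an unadjusted p below 0.05 in the higher direction, beside 4.29% of all genes. Without PF library 2 there were 0 such members, and 1 without vehicle library 1, vehicle library 3 or PF library 1, and also 1 once the GC and length trend was taken out. The list's median of 0.32 became 0.09 without vehicle library 1, and the value of Tiparp 0.19 with the trend removed. The windows of both are printed for this reason (Ahrr, chr13:74292332-74292581, minus strand; Tiparp, chr3:65528197-65528446, plus strand; RefSeq, GRCm38.p6), with the core GCGTG, or CACGC on the other strand, in capitals. This core was held by 3 of the 4 members with a promoter in RefSeq's table, Ahrr, Tiparp and Arnt, and 28.2% of all windows did. Nqo1 held none, and Arnt encodes the receptor's partner, not a target. The windows of Ahrr and Tiparp had a GC content of 60.4% and 75.2%, and the share of all windows was not matched for GC content.
Ahrr: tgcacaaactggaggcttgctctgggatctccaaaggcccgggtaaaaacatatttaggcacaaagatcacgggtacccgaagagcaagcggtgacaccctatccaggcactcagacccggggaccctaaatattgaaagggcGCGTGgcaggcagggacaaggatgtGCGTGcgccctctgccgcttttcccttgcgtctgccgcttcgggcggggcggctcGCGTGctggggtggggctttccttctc
Tiparp: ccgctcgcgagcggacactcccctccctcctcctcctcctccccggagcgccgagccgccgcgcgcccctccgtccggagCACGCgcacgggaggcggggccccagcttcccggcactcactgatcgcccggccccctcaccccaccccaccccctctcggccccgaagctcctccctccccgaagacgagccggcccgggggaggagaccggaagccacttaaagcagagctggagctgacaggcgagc

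Ahrr, the repressor induced by the receptor, had 17.6, 17.2 and 17.1 CPM with vehicle and 22.2, 25.9 and 21.1 CPM with PF, without overlap. Its log2 difference was 0.42 ± 0.14 (adjusted p = 0.548, edgeR). Tiparp, a poly(ADP-ribose) polymerase that limits receptor activity, had 7.57, 10.4 and 8.70 CPM with vehicle and 14.5, 13.03 and 9.39 CPM with PF, which overlapped (0.46 ± 0.21, adjusted p = 0.982, edgeR). In WT BMDMs Ahrr differed by 0.20 ± 0.15 and Tiparp by 0.73 ± 0.26, and neither genotype difference passed. Nqo1 differed by 0.32 with overlapping groups. Ahr and Arnt, which encode the receptor itself and its partner and are not targets in the sense of the list's name, differed by 0.23 and -0.10 with overlapping groups. Cyp1a1, Cyp1a2 and Cyp1b1, the other listed targets, were not among the genes tested.

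Many genes of cholesterol synthesis rose with PF in WT BMDMs, and none passed the test in AMPKβ1-/- BMDMs. Of 21 members tested, 11 rose in WT cells at an adjusted p below 0.05, beside 6.99% of all genes, and 0 in AMPKβ1-/- cells (edgeR, and 0 at an unadjusted p below 0.05 in the higher direction by edgeR or DESeq2). The median log2 difference was -0.08 in AMPKβ1-/- and 0.38 in WT BMDMs. In AMPKβ1-/- cells 5 of 21 lay lower without overlap and 1, Ggps1, higher, beside 6.28% and 8.21% of all genes.

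Cyp51, a sterol demethylase, had 49.7, 50.1 and 52.5 CPM with vehicle and 51.4, 47.8 and 45.2 CPM with PF in AMPKβ1-/- BMDMs, which overlapped. Its log2 difference was -0.08 ± 0.09 against 0.77 ± 0.08 in WT cells (adjusted p of the difference 0.00811, edgeR).

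Insig1, which holds the SREBP precursor in the endoplasmic reticulum and is itself an SREBP target, had 65.4, 62.5 and 57.1 CPM with vehicle and 57.4, 59.7 and 58.0 CPM with PF. It differed by -0.08 ± 0.12 in AMPKβ1-/- and rose by 0.99 ± 0.12 in WT BMDMs (adjusted p of the difference 0.0133, edgeR). Mvd, the decarboxylase of mevalonate, was the only member with an unadjusted p below 0.05, beside 0.693% of all genes lower. It had 31.1, 29.3 and 29.8 CPM with vehicle and 25.2, 25.2 and 25.9 CPM with PF (-0.24 ± 0.10, adjusted p = 0.899, edgeR). Hmgcs1 and Sqle, an early and a middle enzyme of the pathway, differed by 0.03 and -0.01, and Fdft1, squalene synthase, by -0.15 ± 0.09 without overlap. Of 12 genes each of fatty acid synthesis and of SREBP control and sterol uptake, none passed an unadjusted p of 0.05 in AMPKβ1-/- BMDMs.

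The genes of AMPK itself and its upstream kinases, 9 in number, gave no DEG and no unadjusted p below 0.05. Prkab1 differed by 0.27 ± 0.14 and Prkab2, the β2 subunit that remains, by 0.03 ± 0.23, with 10.7, 7.37 and 5.62 CPM with vehicle and 8.10, 8.64 and 7.53 CPM with PF. Prkaa1, the α1 catalytic subunit, differed by 0.23 ± 0.13, and the sign turned with the GC and length trend removed (-0.062). The γ subunit genes Prkag1 and Prkag2 differed by -0.05 ± 0.10 and 0.01 ± 0.10. The groups overlapped in all 5 genes.

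**Figure D4:**
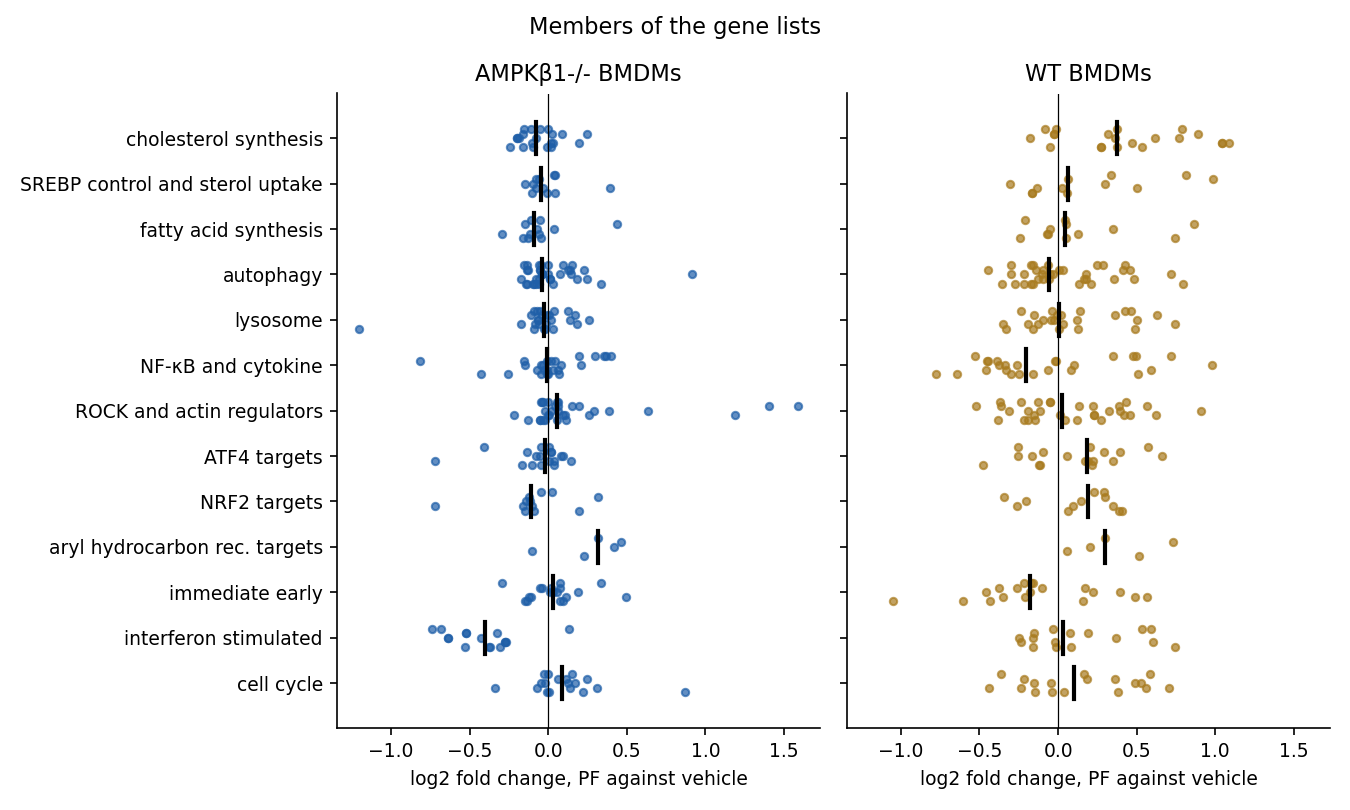
Log2 fold change of PF against vehicle for the tested members of 13 gene lists (points, 1 per gene) in AMPKβ1-/- BMDMs (left) and WT BMDMs (right), with the list median as a black bar. In AMPKβ1-/- cells the interferon-stimulated genes lie to the left of 0 (median -0.40) and the cholesterol synthesis genes near 0 (median -0.08), while in WT cells these medians are 0.03 and 0.38.

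Regulators of ROCK and actin held 3 of the 6 DEGs among 32 members. A further member, Rock2, the paralog of Rock1, had 15.1, 21.9 and 22.2 CPM with vehicle and 35.02, 24.4 and 32.7 CPM with PF, without overlap (0.63 ± 0.17, adjusted p = 0.292, edgeR). In all, 6 of 32 were higher without overlap, beside 8.21% of all genes, and 0 lower. Ppp1r12a, the targeting subunit of myosin phosphatase, and Cdc42bpa, a kinase related to ROCK, were the other members, with differences of 0.29 and 0.39. This list was written with earlier results of these data known, so its count is not independent evidence. Its median of 0.05 was -0.01 with the GC and length trend removed, and 4 members were then higher and 3 lower without overlap.

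Of 36 autophagy genes, Rb1cc1 was the 1 DEG and the only gene with an unadjusted p below 0.05, beside 4.29% of all genes higher and 0.693% lower. Ulk2, Atg14 and Atg3 were also higher without overlap, by 0.18, 0.14 and 0.25, and Becn1, Uvrag and Atg4b lower without overlap, by -0.09, -0.14 and -0.13. The 4 higher and 3 lower of 36 were near the 8.21% and 6.28% of all genes, and the median was -0.04. Atg5, Atg12 and Lamp2, which the study names, differed by 0.01 ± 0.15, 0.09 ± 0.13 and 0.13 ± 0.14 with overlapping groups. Of 25 lysosome genes only Gla, a glycosidase, had an unadjusted p below 0.05, beside 0.693% of all genes lower. Gla stood at 0.0785 to 0.523 CPM with PF and 0.636 to 0.913 CPM with vehicle, which in part is under the floor of 3 counts.

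Among 26 NF-κB and cytokine genes, Ccl5 was the 1 with an unadjusted p below 0.05, beside 4.29% of all genes higher and 0.693% lower. Without overlap 4 were higher and 2 lower, beside 8.21% and 6.28% of all genes. The list's median was -0.004 against -0.20 in WT BMDMs. Rela, Nfkb2, Tlr9, Mapk14 and Irf8, which the study names, differed by -0.04 ± 0.09, -0.03 ± 0.09, -0.05 ± 0.11, -0.01 ± 0.07 and -0.03 ± 0.07 with overlapping groups. In WT BMDMs each of these 5 genes fell, by 0.26 to 0.65 on the log2 scale at an adjusted p below 0.05. The difference between the genotypes passed for none of the 5, with adjusted p from 0.0949 for Tlr9 to 0.329 for Irf8 (interaction, edgeR). A fall that needs AMPKβ1 was thus not shown for these 5 genes. Klf8, Klf7 and Zfp322a, 3 transcription factors the study names, differed by 0.33 ± 0.24, 0.30 ± 0.20 and 0.74 ± 0.23. Zfp322a was higher without overlap in AMPKβ1-/- cells (adjusted p = 0.479, edgeR), and its WT value was 0.67 ± 0.34. Klf8 was higher without overlap too, at 3.39 to 3.65 CPM with vehicle and 3.83 to 5.67 CPM with PF, and its difference was 0.12 without PF library 3.

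Of 12 NRF2 targets, which encode antioxidant enzymes, 5 lay lower without overlap and 0 higher, beside 6.28% of all genes lower and 8.21% higher: Hmox1, Srxn1, Txnrd1, G6pdx and Prdx1, by -0.12 to -0.16. The list's median was -0.11. Of 18 ATF4 targets, 12 genes of the unfolded protein response and 12 p53 targets, none had an unadjusted p below 0.05 by edgeR on the 12 libraries. The lowest value among the NRF2 and ATF4 targets was -0.72 ± 0.40, of the cystine transporter gene Slc7a11, on 0.471 to 1.19 CPM, and the highest among the p53 targets was 0.45 ± 0.26, of Trp53inp1. Hsp90aa1, a heat shock chaperone, differed by 0.41 ± 0.19, Egr2, an immediate early factor, by 0.50 ± 0.17 without overlap, and Mki67, the proliferation marker, by 0.87 ± 0.33 without overlap, on 4.01 to 10.5 CPM with vehicle and 12.01 to 18.2 CPM with PF. No adjusted p of these 3 genes was below 0.642 by edgeR on the 12 libraries, and over the alternatives the lowest were 0.625 for Hsp90aa1, 0.317 for Egr2 and 0.424 for Mki67. Each was the only member of its list with an unadjusted p below 0.05 (edgeR), beside 4.29% of all genes higher. The lists held 12 heat shock, 19 immediate early and 18 cell cycle genes, with medians of -0.05, 0.03 and 0.09. Without vehicle library 1 the cell cycle median was -0.05.

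Across the 10822 genes the response went with GC content. Genes of low GC were higher with PF: the fifth of genes with the lowest GC content, 32.8% to 44.3%, had a median log2 difference of 0.19, and 23.2% of its genes were higher and 0.788% lower without overlap. In the fifth with the highest GC content the median was -0.05, and 2.27% were higher and 7.42% lower. Across 10780 genes, which are not independent replicates, Spearman's correlation of the log2 difference with GC content was -0.46, and 0.03 once the trend was removed. With transcript length it was 0.17. The slope of log2 CPM on GC content in a library, per 10 points of GC and relative to the mean of all libraries, was -0.10, -0.36 and -0.34 in vehicle libraries 1 to 3 and -0.51, -0.33 and -0.44 in PF libraries 1 to 3. These overlapped (exact permutation test, two-sided, p = 0.3, where 0.1 is the smallest possible). The slope in the WT libraries was 0.72, 0.36 and 0.53 with vehicle and 0.37, 0.17 and -0.05 with PF, each above every AMPKβ1-/- library. In WT BMDMs the same groups of genes had medians of 0.42 and -0.24. The part of GC content in the 6 DEGs was not tested beyond the values with the trend removed.

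**Figure D5:**
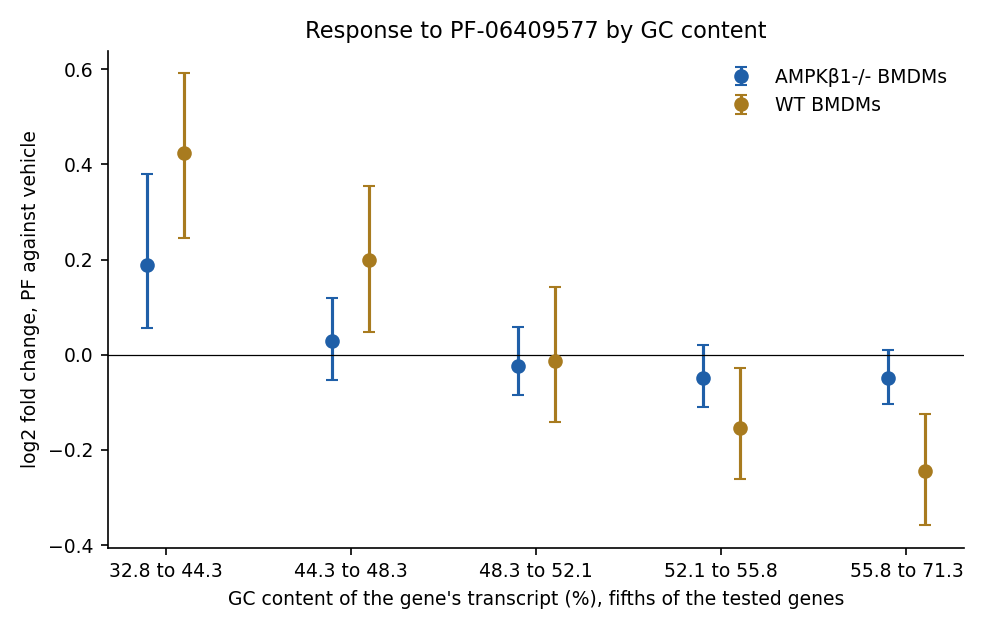
Median log2 fold change of PF against vehicle (y) in quintiles of the tested genes by GC content of the transcript (x, %), for AMPKβ1-/- BMDMs (blue) and WT BMDMs (brown), with bars from the lower to the upper quartile of genes. The median of AMPKβ1-/- cells runs from 0.19 in the fifth with the lowest GC content to -0.05 in the highest, and that of WT cells from 0.42 to -0.24.

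Zinc finger genes of the Zfp series, which encode DNA-binding proteins, many of them repressors, were often on the higher side. Of 297 tested, 48 had an unadjusted p below 0.05 in the higher direction and 0 in the lower, beside 4.29% and 0.693% of all genes. Without overlap 63 were higher and 1 lower, beside 8.21% and 6.28%, but only Zfp677 was a DEG. Their median difference was 0.11, and their median GC content 44.8%. With at least 10 counts required in every library 192 Zfp genes were tested, and their median was 0.05. Of these, 16 were higher and 0 lower at an unadjusted p below 0.05 (edgeR), beside 354 higher and 75 lower of 9904 genes. Within the fifth of lowest GC content 54 of 141 Zfp genes (38.3%) were higher without overlap, with a median of 0.48, and 446 of the 2015 other genes (22.1%), with a median of 0.18. In the next 3 classes of rising GC content 4 of 42, 3 of 44 and 2 of 30 Zfp genes were higher without overlap (9.52%, 6.82% and 6.67%). Of the other genes 7.52%, 5.02% and 2.78% were, so the excess there rests on few Zfp genes. In the fifth of highest GC content 0 of 40 Zfp genes were higher without overlap, against 2.32% of the other genes. With the GC and length trend removed 41 Zfp genes were higher and 10 lower without overlap, and the median was 0.05. Short reads can be shared among related Zfp genes, so values of single members are uncertain.

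Of 77 ribosomal protein genes tested, 19 were lower and 2 higher without overlap, beside 6.28% of all genes lower and 8.21% higher, with a median of -0.06, against 0.10 in WT BMDMs. Rpl35 and Rps28, which differed by -0.42 and -0.39, were the 2 with an unadjusted p below 0.05 by edgeR on the 12 libraries, beside 0.693% of all genes lower. By edgeR on the 6 AMPKβ1-/- libraries alone 12 were lower and 1 higher at that p, and with the replicate number as a block none. With the trend removed 12 were lower and 4 higher.

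The responses of the genotypes were also set side by side over all genes, in contrasts that share no library. Of the 464 genes higher in AMPKβ1-/- BMDMs at an unadjusted p below 0.05, 42 (9.05%) rose in WT BMDMs at an adjusted p below 0.05, beside 6.99% of all genes, and these were 5.56% of the 756 genes that rose in WT. Of the 75 lower genes, 8 (10.7%) fell in WT BMDMs, beside 8.95% of all genes, and these were 0.826% of 969. In 9 genes the directions were opposite.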

How the data were processed

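RNA sequencing of BMDMs was done on 3 libraries in each of 4 groups (genotype by treatment), and the 6 AMPKβ1-/- libraries are the subject here. Per the labels and the methods of the study, the authors trimmed reads with Trim Galore, quantified transcripts with Salmon and tested with DESeq2, all without a version in the submitters' processing notes. The authors deposited estimated counts per gene that had been rounded to whole numbers, without normalization. The genome build, the annotation, bias options and filters are not given in the sources used here. Salmon shares reads between similar sequences by estimate, so near-identical genes are uncertain, and GC bias remains where it was not modelled.

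The test was run with edgeR 4.0.16 under R 4.3.3 (quasi-likelihood test, robust, TMM, filterByExpr by group), in one fit of 4 group means to all 12 libraries, with Benjamini-Hochberg adjusted p values over 10822 genes. Fits with DESeq2 1.42.0 and limma 3.58.1 (voom) were alternatives, as were other scalings, filters, samples and a GC and length offset (natural splines with 5 degrees of freedom). SE were derived from the F statistic. GC content and length came from GENCODE M21 (GRCm38), where 12703 symbols were found, 166 more through an earlier name, and 91 were absent. Log2 CPM used a prior count of 2. Scripts were tested on simulated data. Depth was 8935609 to 14358180 counts per library.

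Columns name the group and a number, and the titles carry no such number, so numbers only name libraries. No replicate pair was identical, and AMPKβ1-/- replicates differed by 2.20 to 11.6 times the variance of counting alone. The largest values, 11.6 and 10.8, were those of vehicle library 1 with vehicle libraries 2 and 3. Named genes were all DEGs, the 10 smallest p in each direction, the 5 largest differences in each direction among genes without overlap and at least 5 CPM, the AMPK subunits and the genes named in the study's RNA-seq results, and members of written lists with an unadjusted p below 0.05. The families of Zfp and ribosomal protein genes were found by symbol, and their members and other list members or genes with values here were named after their values were seen. The members and lists were chosen with earlier results of these data known. The animals, blots and lipid assays were not analysed here. Some items are not reported here.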

Additional observations from a re-analysis of the deposited data

Results flagged for a closer look

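For 9 of the reported genes, named by rule or held by a list, the response of WT BMDMs differed from that of AMPKβ1-/- BMDMs by an interaction test (edgeR's quasi-likelihood test, adjusted over all tested genes, 3 libraries per group). Of these, 4 belong to sterol synthesis and its control: the adjusted p of the difference was 0.00811 for Cyp51, 0.0133 for Insig1, 0.0261 for Msmo1 and 0.0261 for Hsd17b7. Msmo1, a sterol oxidase, differed by 0.002 in AMPKβ1-/- and rose by 0.79 in WT BMDMs, and Hsd17b7, a ketosteroid reductase, by -0.10 and 1.04. Scd2, a fatty acid desaturase, differed by -0.16 and rose by 0.74 in WT (adjusted p of the difference 0.00811). Ccl4, a chemokine, differed by -0.15 and rose by 0.98 in WT (0.0417), and Prdx1, a peroxiredoxin, differed by -0.15 and rose by 0.39 in WT (0.0480).

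In 2 genes the WT response was downward: Fos, an immediate early factor, differed by 0.07 in AMPKβ1-/- BMDMs and by -0.61 in WT (adjusted p of the difference 0.0261), and Cx3cr1, the fractalkine receptor, by -0.06 and -1.05 (0.000174). None of the 9 genes passed the test of PF against vehicle in AMPKβ1-/- BMDMs, where their adjusted p was at least 0.982 by edgeR.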

How the results depend on the processing

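The count of 6 higher and 0 lower DEGs depended on the setting. Scaling by library size alone, a minimum of 10 counts in every library and edgeR's test against a fold change of 0.8 (glmTreat) gave 0 higher. DESeq2 on all libraries gave 31 higher and 1 lower, limma-voom 22 higher, edgeR on the AMPKβ1-/- libraries alone 37 higher and 1 lower, and DESeq2 on them 46 higher and 1 lower. With the GC and length trend removed 1 was higher, Vamp7, with a log2 difference of 1.06 against 1.10 before. No GC content was known for it, so the mean fitted trend of each library was removed instead. The cause was not tested. The 6 DEGs were all among those of the 2 fits to AMPKβ1-/- libraries alone, which shared 37 genes. Leaving out 1 library left 0 to 6 higher, and 0 lower in each case. At an unadjusted p below 0.05, edgeR on the AMPKβ1-/- libraries alone gave 735 higher and 219 lower genes. DESeq2 gave 45 lower on all libraries and 132 on the AMPKβ1-/- libraries alone. With the trend removed 330 were lower. Leaving out 1 library gave 270 to 515 higher and 50 to 110 lower, with 270 higher without vehicle library 1 and 272 without PF library 1. Of the other counts recomputed, 54 stayed within 1.5 times, including those of genes without overlap, 758 higher and 1006 lower with the trend removed.

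No pairing by library number was seen. Deviations of same-numbered vehicle and PF libraries correlated by -0.34, -0.34 and 0.04, and those of differently numbered libraries by -0.24 to 0.37. So few values cannot settle whether libraries shared mice or cultures. A replicate block gave 8 DEGs higher and 1 lower, of which 5 were among the 6, and 580 genes higher and 85 lower at an unadjusted p below 0.05. Of single genes under single alternatives, 673 values kept sign and call, 48 lost the call, 32 gained it and 1 turned: Prkaa1, -0.062 with the trend removed. Of list medians, 378 moved by less than the spread between replicates and 13 by more.

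Depth limits genes of few reads such as Zfp677, whose value rests on 8 to 39 counts a library. The list counts without PF library 3 were added after the data were seen.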
